A study of Homo sapiens with 6 samples.

Results

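The proteasome is the protease complex that degrades ubiquitin-tagged proteins, and its transcripts were followed here in cultured cells that carry the label A549 (human lung adenocarcinoma), with and without knockdown of the forkhead transcription factor FOXD3. The members were all gene symbols that begin with PSMA to PSMG followed by a digit in any library, which gave 47 of the 17789 symbols listed in the series. Of these, 46 encode proteasome subunits, assembly chaperones, activators or an inhibitor. PSMC3IP matched by its name only and encodes a recombination cofactor of meiosis. RNA sequencing was carried out on 6 libraries, 3 of cells described as wild type (control) and 3 of the FOXD3 knockdown. The knockdown cells received a pool of small interfering RNAs against FOXD3 by lipid transfection, and its effect was examined after 72 h. Whether the control wells were transfected is not described, and nothing says that replicates were separate cultures, so p-values measure the spread between these libraries, which may be technical.

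Substrates enter the barrel-shaped 20S core, which is built from outer rings of alpha subunits (PSMA) and inner rings of beta subunits (PSMB). Only PSMB5, PSMB6 and PSMB7 carry the catalytic sites in most cells. Interferon and NF-kB signalling induce PSMB8, PSMB9 and PSMB10, which replace PSMB5, PSMB6 and PSMB7 during assembly and form the immunoproteasome, known for producing peptides for MHC class I. The 19S regulatory particle (PSMC ATPases and PSMD subunits) recognises, unfolds and feeds in ubiquitinated proteins. PSME1 and PSME2 form an alternative cap that is also inducible by interferon-gamma, whereas PSME3 and PSME4 make nuclear caps. In many cells the transcription factor NFE2L1 raises proteasome genes when proteasome activity is short.

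Values are FPKM, fragments scaled to transcript length and library size. A log2 change is the knockdown mean of log2(FPKM + 1) less the control mean, a scale that makes the change of low genes look smaller. A change was called when limma's test over all 13340 genes gave a Benjamini-Hochberg adjusted p under 0.05. Single fragments in intronless genes put the depth at roughly 6440000 to 7910000 fragments per library, an estimate that rests on 4 to 10 genes per library. Depth in counts is otherwise unknown. Control libraries listed 16229 to 16288 symbols and knockdown libraries 15651 to 15754. Small nucleolar RNAs held 0.975%, 1.53% and 1.04% of the FPKM total in control replicates 1 to 3. In knockdown replicates 1 to 3 they held 1.92%, 4.83% and 1.82%. Both measures thus differed between the groups. FOXD3 itself stood at 0.152, 0.291 and 0.134 FPKM in control replicates 1 to 3, at 0.0749 in knockdown replicate 2, and was not listed in knockdown replicates 1 and 3 (exact two-sided permutation test, p = 0.1, the smallest that 3 against 3 allows). Levels this low are near the detection limit in both groups, so the targeted gene is a weak check of the labels.

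The cells were checked against markers of the labelled line. Epithelial genes were abundant in every library, with KRT8 at 1900 to 3211 FPKM and EPCAM at 111 to 170. A549 is known to lack CDKN2A and its neighbour MTAP through deletion and to make much vimentin. By contrast CDKN2A stood at 126 to 155 FPKM, MTAP at 9.20 to 12.3 and VIM at 0.959 to 4.25. AKR1C1 and ALDH1A1, abundant in A549, stood at 406 to 670 and 29.1 to 106 FPKM. Of the lung genes on the same list, NKX2-1 stood at 1.16 to 1.65, SFTPD at 0.0826 to 1.16 and SFTPC at 0 to 0.149 FPKM. SFTPB and SFTA3 were not listed in any library. The cells are therefore called cells labelled A549 throughout.

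Short stretches just upstream of member genes are shown first because members that share a sequence there did not all change in the same way. The sequences are RefSeq's on GRCh38.p14, 5′ to 3′ on the gene's strand, and capitals mark every match to the interferon-stimulated response element searched on both strands as 2 copies of GAAA with any 2 bases between them. PSMB10 and PSME2 are interferon-inducible, PSMG4 encodes an assembly chaperone, and PSME1, the neighbour of PSME2, is shown as a sequence without the element. Each line gives the last 60 bases before the annotated start.
PSMB10 (chr16:67936851-67936910, minus strand): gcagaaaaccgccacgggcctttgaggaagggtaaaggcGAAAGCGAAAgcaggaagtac
PSME2 (chr14:24146611-24146670, minus strand): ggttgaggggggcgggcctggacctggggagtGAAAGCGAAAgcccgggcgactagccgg
PSMG4 (chr6:3258887-3258946, plus strand): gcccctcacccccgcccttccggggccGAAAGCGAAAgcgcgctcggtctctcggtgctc
PSME1 (chr14:24136134-24136193, plus strand): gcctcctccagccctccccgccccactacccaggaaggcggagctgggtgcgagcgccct

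The form GAAAGCGAAA, counted because members share it, stood in PSMB10, PSME2 and PSMG4, and in 24 of 27305 promoters (0.088%) over the same 250 bases before the start. The element with any 2 bases in the middle was found in 5 of the 41 members with a promoter sequence and in 3.07% of all promoters, with PSMA4 and PSMB4 as the further members. In the expression data PSMB10 fell, PSMG4 did not pass the test, and PSME1, which has none of these letters in its window, fell. PSME2 rose slightly, with overlapping groups and a call that was lost in 8 of 17 settings. A match is a description of letters, not of a bound factor.

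Another pair of sequences shows the box CCAAT (or its complement ATTGG, both strands searched), bound in many promoters by the factor NF-Y, in constitutive alpha subunits that rose. Capitals mark the box. PSMA3 is shown for the last 60 bases before its start and PSMA5 for bases 100 to 41 before its start.
PSMA3 (chr14:58244783-58244842, plus strand): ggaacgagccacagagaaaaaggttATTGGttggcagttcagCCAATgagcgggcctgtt
PSMA5 (chr1:109426489-109426548, minus strand): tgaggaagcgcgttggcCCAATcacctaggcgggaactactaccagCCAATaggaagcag

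Each of them carries the box at 2 places. PSMA1, PSMA4 and PSMA6 also rose and had no box in their windows. The same held for PSMC1 and PSMD1 of the regulatory particle. At least 1 box was found in 13 of 26 constitutive subunits with a sequence (50%) and in 33.04% of all promoters. The antioxidant response core TGACNNNGC, the kind of site NFE2L1 and NFE2L2 bind, was found in 3 of the 26 (11.5%), PSMB3, PSMD12 and PSMD3, in 11 of all 41 members (26.8%), in 3 (PSMB9, PSME1 and PSME2) of the 5 genes PSMB8, PSMB9, PSMB10, PSME1 and PSME2, and in 11.04% of all promoters. These are counts of letters, with no test. The interferon-gamma activated site TTCNNNGAA was found in 3 of the 26 and in 6.78% of all promoters. The NF-kB motif was found in 0 of 41 members and in 9.57% of all promoters, which says only that those letters are not in these windows.

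The main comparison asked which proteasome transcripts differed between knockdown and control cells. Subunits of the constitutive proteasome were higher in knockdown libraries, the immunoproteasome subunits were lower, and the assembly chaperones were mostly little different. Of 47 members, 37 were higher and 4 lower by limma, where 63.5% of all genes tested were called, 25.6% higher and 37.9% lower. The 4 lower members were PSMB8, PSMB9, PSMB10 and PSME1. The remaining 6, PSMB4, PSMB7, PSMD9, PSMG2, PSMG3 and PSMG4, did not pass. The median log2 change was 0.41 over the members and -0.09 over all genes. All 47 had a mean over the filter of 0.5 FPKM and were listed in every library. Scaling bears on small changes: the median of all genes moved from -0.09 to 0.02 after median scaling or quantile normalization, and the number of higher members was 40 and 33 under these settings, with 4 lower under both.

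**Figure D1:**
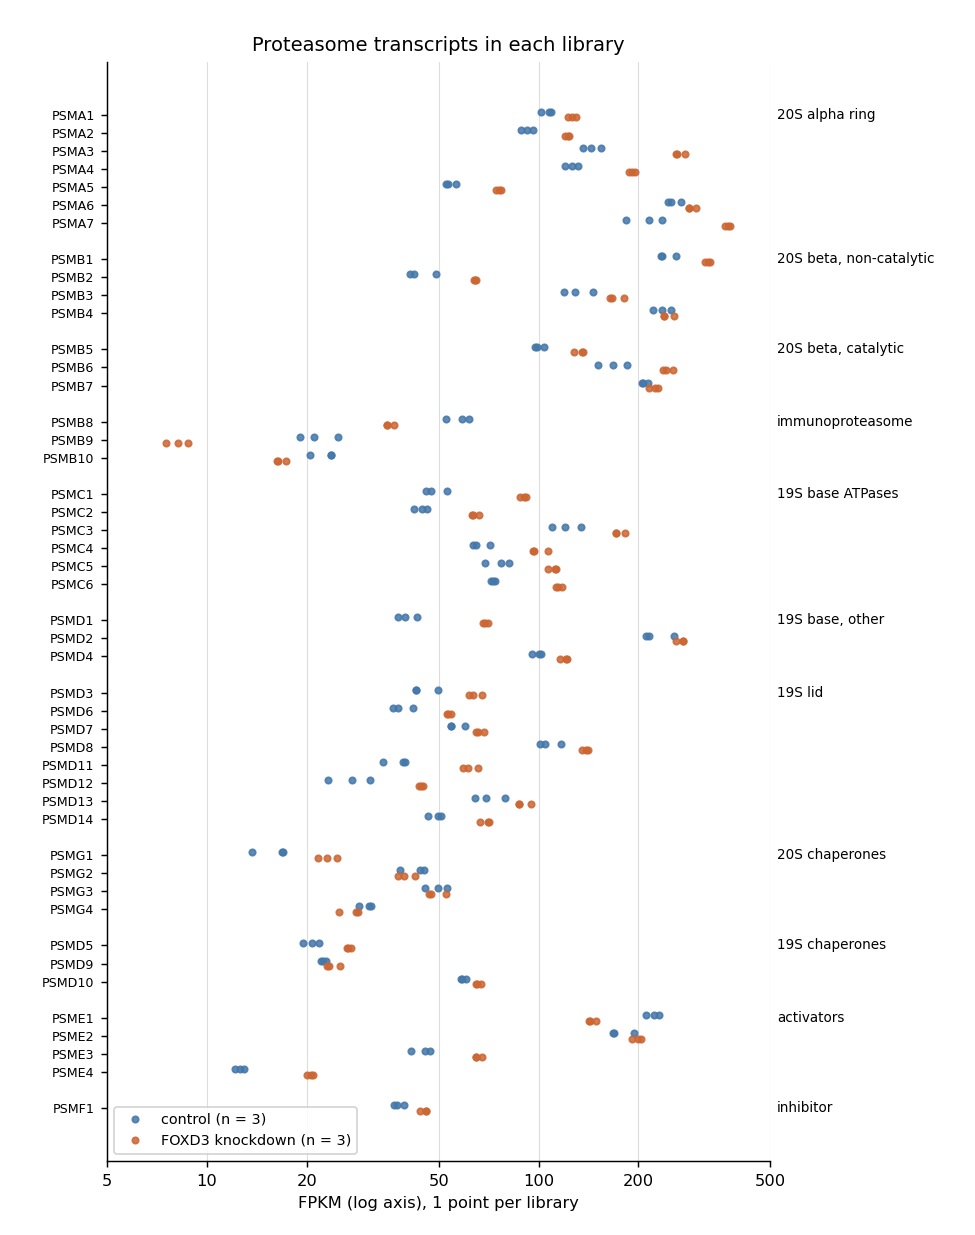
FPKM of the 46 proteasome genes in each library on a log axis, grouped by role, with 3 control points (blue) and 3 FOXD3 knockdown points (orange) per gene. Orange points lie right of blue for most core and regulatory subunits, and left of blue for PSMB8, PSMB9, PSMB10 and PSME1.

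The immunoproteasome subunits were lower in every knockdown library than in any control library. PSMB8 is the inducible counterpart of PSMB5 (chromosome 6, 32808494 to 32812712, hg19). In control replicates 1 to 3 it had 52.4, 58.6 and 61.8 FPKM, against 34.99, 34.87 and 36.72 in knockdown replicates 1 to 3. The knockdown values were close together and all lay below the lowest control, a log2 change of -0.68 (SE 0.07; limma adjusted p = 4.90e-05). PSMB9, the counterpart of PSMB6 (chromosome 6, 32821938 to 32827628, hg19), stood at 24.76, 19.04 and 21.08 in control and at 7.55, 8.76 and 8.19 in knockdown libraries. No other proteasome gene tested here had as large a change in either direction as PSMB9, -1.30 (SE 0.10; limma adjusted p = 1.53e-05), and in knockdown libraries it was the lowest of the 47 by mean. At the estimated depth PSMB9 rests on about 43 to 51 fragments per knockdown library and 96 to 130 per control library.

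PSMB10 is the counterpart of PSMB7 (chromosome 16, 67968407 to 67970780, hg19), with 23.7, 20.5 and 23.6 FPKM in control and at 17.3, 16.2 and 16.4 FPKM in knockdown libraries. Its groups did not overlap either, and its fall was the smallest of the 3, -0.42 (SE 0.07; limma adjusted p = 0.000951). Groups that do not overlap were found in 43 of the 47 members and in 69.1% of all genes tested. PSMB8 and PSMB9 lie in the MHC region, which hg19 carries as 8 copies, the reference among them. Their FPKM were summed over these. The copies are not independent measurements, so agreement between them is not repeated evidence. For PSMB9 the reference and the copy named dbb had the same value in knockdown replicates 2 (1.40 FPKM) and 3 (1.31). The copies named apd and mcf had the same value in knockdown replicates 1 (0.327 FPKM) and 3 (0.523). In each of the 8 copies the control libraries were above the knockdown libraries, with a control mean 1.54 to 1.70 times the knockdown mean for PSMB8 and 1.81 to 3.05 times for PSMB9.

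In bulk RNA, fewer cells that express a gene and less RNA per cell cannot be told apart. Immunoproteasome subunits are constitutive in leukocytes, so leukocyte markers are given beside them. Of 5 such markers 4 had a mean under 0.5 FPKM, PTPRC stood at 0.146 to 0.309 in the 6 libraries, and CD3E was not listed in any control library. The summed level of the 5 was 2.86 to 4.12 FPKM in control and 1.45 to 1.97 in knockdown libraries, most of it CD14 (0.984 to 3.38 over the 6 libraries), and the part of this change in the fall of PSMB8 to PSMB10 was not tested.

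The constitutive catalytic subunits did not fall with them. PSMB5, the chymotrypsin-like subunit (chromosome 14, 23495060 to 23504429, hg19), had 104, 98.7 and 97.8 FPKM in control and 136.6, 135.2 and 128.2 in knockdown libraries, a change of 0.41 (SE 0.05; limma adjusted p = 0.000104). PSMB6, the caspase-like subunit, stood at 184.8, 167.5 and 151.2 in control and at 255, 242 and 238 in knockdown libraries, and rose by 0.55 (SE 0.07; limma adjusted p = 0.000244). Both were higher in every knockdown library than in any control library. PSMB7, the trypsin-like subunit, stood at 214, 205 and 206 in control and at 225, 215 and 228 in knockdown libraries. Its change of 0.10 did not pass (95% interval 0.00 to 0.19; limma adjusted p = 0.0695), although the lowest knockdown value lay just above the highest control value. After median scaling it was 0.23 and passed (limma adjusted p = 0.00298), and after quantile normalization it was -0.03 (limma adjusted p = 0.635).

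Setting each inducible subunit against the one it replaces, within a library, takes out that library's own scale factor. PSMB8 made up 33.5%, 37.3% and 38.7% of the summed FPKM of PSMB8 and PSMB5 in control replicates 1 to 3, and 20.4%, 20.5% and 22.3% in knockdown replicates 1 to 3. PSMB9 made up 11.4% ± 1.07 (SD, n = 3) of its pair in control and 3.23% ± 0.318 in knockdown libraries. PSMB10 made up 9.78% ± 0.617 of its pair in control and 6.94% ± 0.226 in knockdown libraries. The inducible form was thus the lesser transcript in each pair already in control cells, and its share was lower in every knockdown library. The log2 ratio of inducible to constitutive form was taken from log2(FPKM + 1), so the scale factor cancels only nearly there. This ratio changed by -1.09 for PSMB8 over PSMB5, by -1.84 for PSMB9 over PSMB6 and by -0.52 for PSMB10 over PSMB7. With 0.1 added in place of 1, the change for PSMB9 over PSMB6 was -1.94. For each of the 3 pairs an exact permutation test (two-sided) gave p = 0.1, and 0.1 after Benjamini-Hochberg adjustment, the smallest p that 3 libraries against 3 allow.

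**Figure D2:**
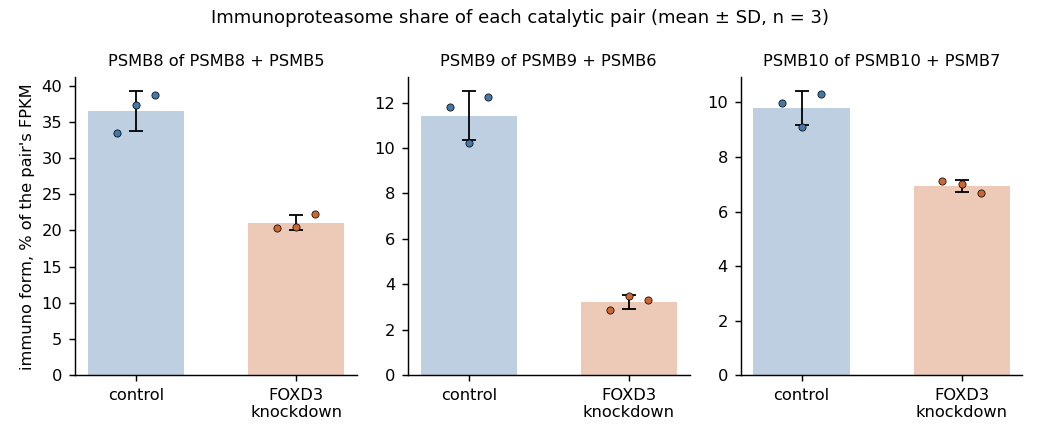
Share of the inducible subunit in the summed FPKM of each catalytic pair, with bars at the mean, error bars of 1 SD and 1 point per library (n = 3 per group; each axis starts at 0 and has its own range). The share of PSMB8 fell from 36.5% to 21.1% on average, that of PSMB9 from 11.4% to 3.23% and that of PSMB10 from 9.78% to 6.94%.

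In the outer alpha ring 7 of 7 members were higher, where 25.6% of all genes tested were, with a median log2 change of 0.48. PSMA3 changed most (chromosome 14, 58711523 to 58738727, hg19), from 137, 154 and 144 FPKM in control to 262, 260 and 276 in knockdown libraries, a change of 0.88 (SE 0.05; limma adjusted p = 5.05e-06). PSMA7 stood at 236, 216 and 183 in control and 373, 377 and 365 in knockdown libraries. It went from the sixth highest mean of the 47 members in control to the highest in knockdown libraries, where its lowest value lay above the highest of PSMB1, the next in order. PSMA6 changed least of the ring, from 268, 251 and 245 to 284, 299 and 285, a change of 0.18 (SE 0.05; limma adjusted p = 0.00809), and it no longer passed after quantile normalization (0.09; limma adjusted p = 0.0800). PSMA1, PSMA2, PSMA4 and PSMA5 rose by 0.24 to 0.60. PSMA8, the testis alpha subunit, and PSMB11, the thymus beta subunit, were not listed in any library.

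Of the beta subunits without a catalytic site, PSMB1, PSMB2 and PSMB3 rose and PSMB4 did not pass. PSMB2 stood at 49.0, 40.9 and 42.0 FPKM in control and at 65.0, 64.4 and 63.8 in knockdown libraries, a change of 0.54 (SE 0.07; limma adjusted p = 0.000210). PSMB3 stood at 146, 119 and 129 in control and at 181, 164 and 167 in knockdown libraries, a change of 0.38 (SE 0.08; limma adjusted p = 0.00261). PSMB4, among the most abundant members in control, stood at 250, 236 and 222 in control and at 256, 239 and 239 in knockdown libraries. Its groups overlapped, and its change of 0.05 had a 95% interval of -0.07 to 0.18. After median scaling PSMB4 was 0.18 and passed (limma adjusted p = 0.0262), and after quantile normalization it was -0.06. Summed over the 14 constitutive core subunits, the level went from 2122 ± 112 FPKM (SD, n = 3) in control to 2846 ± 13.6 in knockdown libraries, 1.34 times the control. That ratio was 1.47 after median scaling and 1.24 after quantile normalization.

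In the regulatory particle 17 of 17 subunits with a PSM symbol were higher, where 25.6% of all genes tested were. Their median log2 change was 0.53. The 6 ATPases of the base, which unfold the substrate, rose by 0.53 to 0.87. PSMC1 led them (chromosome 14, 90722894 to 90738966, hg19), from 53.1, 45.8 and 47.4 FPKM in control to 91.5, 87.8 and 90.3 in knockdown libraries (SE 0.06; limma adjusted p = 9.40e-06). PSMC3 changed least, from 134, 120 and 110 to 171, 182 and 172, a change of 0.53 (SE 0.07; limma adjusted p = 0.000313). PSMD1, a scaffold that docks ubiquitin receptors, stood at 42.9, 39.4 and 37.7 in control and at 70.3, 68.9 and 68.0 in knockdown libraries, a change of 0.77 (SE 0.05; limma adjusted p = 1.07e-05). PSMD2, the other large scaffold, stood at 256.5, 215 and 210.9 in control and at 273, 272 and 259 in knockdown libraries. Control replicate 1 came within 3 FPKM of the lowest knockdown value, and the change was 0.24 (SE 0.07; limma adjusted p = 0.0195). The call for PSMD2 was lost after quantile normalization (limma adjusted p = 0.103) and without control replicate 2 or 3 or knockdown replicate 1 or 2, where the limma adjusted p was 0.0591 to 0.0644. PSMD4, an intrinsic ubiquitin receptor, rose by 0.27.

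The lid removes ubiquitin chains through the metalloprotease PSMD14. Of its 8 subunits with a PSM symbol 8 were higher, where 25.6% of all genes tested were. PSMD11, a lid scaffold, changed most, from 39.5, 39.1 and 34.0 FPKM in control to 59.0, 65.6 and 61.2 in knockdown libraries, a change of 0.71 (SE 0.07; limma adjusted p = 5.50e-05). PSMD7, the partner of PSMD14, changed least, from 60.1, 54.6 and 54.4 to 65.5, 68.5 and 64.5, a change of 0.23 (SE 0.05; limma adjusted p = 0.00572). PSMD14 itself rose by 0.49 and PSMD3, PSMD6, PSMD8, PSMD12 and PSMD13 by 0.34 to 0.69. No lid subunit had overlapping groups, which was also true of 69.1% of all genes tested. The summed level of the 17 subunits went from 1229 ± 79.1 FPKM (SD, n = 3) in control to 1699 ± 29.8 in knockdown libraries, 1.38 times the control, against 1.52 times after median scaling and 1.30 after quantile normalization.

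**Figure D3:**
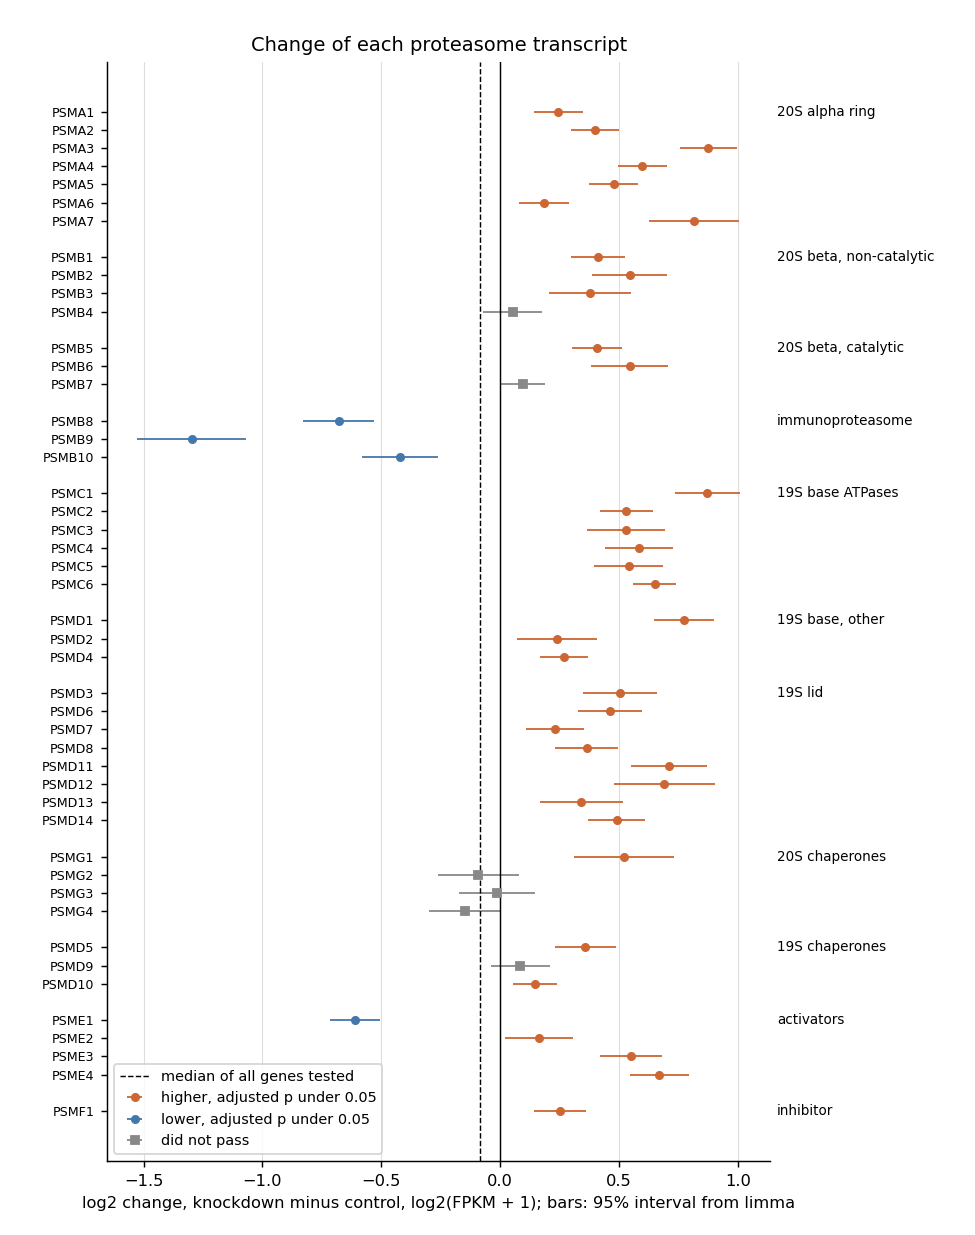
Log2 change (knockdown minus control, log2(FPKM + 1)) of the 46 proteasome genes with the 95% interval from limma, by role, with 0 as a solid line and the median of all genes tested, -0.09, as a dashed line. Core and regulatory subunits lie right of 0, PSMB8, PSMB9, PSMB10 and PSME1 left of it, and grey squares mark the 6 members that did not pass.

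Of the 31 constitutive subunits of core and regulatory particle, 29 were higher and 0 lower by limma, against 25.6% and 37.9% of all genes. At an unadjusted p under 0.05 PSMB7 would join the higher subunits. The mean level ran from 27.2 FPKM (PSMD12) to 255 (PSMA6) in control, a span of 9.37-fold, and from 44.2 (PSMD12) to 371 (PSMA7) in knockdown libraries, a span of 8.40-fold. The order of the levels was close between groups, with a Spearman correlation across the 31 genes of 0.98. Subunits that were high in control tended to change less, with a Spearman correlation between control level and log2 change of -0.42. Both are descriptions across genes of the same 6 libraries, and the control level enters both sides of the latter. In control libraries the top of the order was not resolved, since PSMA6 (245 to 268), PSMB1 (234 to 261), PSMB4 (222 to 250) and PSMD2 (211 to 256.5) overlapped. Control replicate 1 had the highest control value in 25 of the 31 and control replicate 3 the lowest in 21. Without control replicate 1 the count of higher subunits was 30, and leaving out each other library in turn gave 28 or 29.

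The assembly chaperones, which build the complex and leave it before or as it matures, did not move as one. PSMG1, which pairs with PSMG2 to assemble the alpha ring, rose from 16.86, 17 and 13.7 FPKM in control to 23.0, 24.7 and 21.5 in knockdown libraries, a change of 0.52 (SE 0.09; limma adjusted p = 0.00131). Its partner PSMG2 stood at 45.1, 44.0 and 38.2 in control and at 37.6, 39.2 and 42.4 in knockdown libraries, with overlapping groups and a change of -0.09 (95% interval -0.26 to 0.08; limma adjusted p = 0.309). PSMG3 stood at 52.9, 49.8 and 45.4 in control and at 52.6, 46.8 and 47.3 in knockdown libraries (-0.01, 95% interval -0.17 to 0.15). Neither of the latter passed, and the sign of both depended on the scaling. PSMG4, the partner of PSMG3, stood at 30.9, 31.2 and 28.7 in control and at 28.1, 28.6 and 25.1 in knockdown libraries, a change of -0.15 (95% interval -0.30 to 0.00; limma adjusted p = 0.0781).

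Among the chaperones of the 19S base, PSMD5 rose from 21.7, 19.4 and 20.8 FPKM in control to 26.7, 26.4 and 27.2 in knockdown libraries, a change of 0.36 (SE 0.06; limma adjusted p = 0.000716). PSMD10, also known as gankyrin, stood at 60.5, 58.7 and 58.5 in control and at 66.9, 65.0 and 65.3 in knockdown libraries, a small change of 0.15 (SE 0.04; limma adjusted p = 0.0128) that was lost after quantile normalization (limma adjusted p = 0.192) and without knockdown replicate 1 (limma adjusted p = 0.0585). PSMD9 stood at 22.1, 22.8 and 22.4 in control and at 25.2, 23.1 and 23.3 in knockdown libraries and did not pass (0.09, 95% interval -0.04 to 0.21), but it did after median scaling (limma adjusted p = 0.00780). Over the 7 chaperones 3 were higher and 0 lower by limma, against 25.6% and 37.9% of all genes tested. Summed, the chaperones went from 240 ± 11.5 FPKM (SD, n = 3) to 255 ± 4.18, 1.06 times the control.

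The caps went different ways. PSME1 fell (chromosome 14, 24605378 to 24608176, hg19), from 231, 211 and 223 FPKM in control to 142, 143 and 149 in knockdown libraries, a change of -0.61 (SE 0.05; limma adjusted p = 1.37e-05). PSME2, which assembles with PSME1 into the same ring and lies 4397 bases from it (chromosome 14, 24612574 to 24615855, hg19), stood at 194.5, 167.7 and 168.7 in control and at 192, 199 and 203 in knockdown libraries. Its groups overlapped, because control replicate 1 lay above knockdown replicate 1, and the change was 0.16 (SE 0.06; limma adjusted p = 0.0461). The PSME2 call was lost after quantile normalization, without a filter, without a trend in the variance, and on leaving out any single library except control replicate 1, with adjusted p up to 0.445. The log2 ratio of PSME1 to PSME2, again from log2(FPKM + 1), was 0.33 ± 0.08 (SD, n = 3) in control and -0.45 ± 0.03 in knockdown libraries. It was above 0 in 3 of 3 control libraries and below 0 in 3 of 3 knockdown libraries. This pair was picked with its values known; its p was 0.1 by exact permutation (two-sided), the smallest possible.

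PSME3, the subunit of the nuclear PA28-gamma cap, rose from 47.0, 41.3 and 45.4 FPKM in control to 67.5, 64.6 and 64.6 in knockdown libraries, a change of 0.55 (SE 0.06; limma adjusted p = 7.05e-05). PSME4, the nuclear activator PA200, rose from 12.5, 12.9 and 12.1 to 20.9, 20.5 and 20.1, a change of 0.67 (SE 0.05; limma adjusted p = 2.10e-05). Neither had overlapping groups, which was also true of 69.1% of all genes tested. PSMF1, which encodes the proteasome inhibitor PI31, rose from 39.4, 36.6 and 37.4 to 45.8, 44.0 and 45.7, a change of 0.25 (SE 0.05; limma adjusted p = 0.00208). PSMC3IP, no proteasome gene, rose from 7.18, 7.32 and 7.07 to 10.1, 10.8 and 9.12, a change of 0.42 (limma adjusted p = 0.00145).

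All 46 proteasome genes together held 0.653% to 0.717% of the FPKM total in control libraries and 0.871% to 0.894% in knockdown libraries. The immunoproteasome subunits summed to 102 ± 4.27 FPKM (SD, n = 3) in control and 60.3 ± 0.849 in knockdown libraries, 1.69 times lower. PSME1 and PSME2 summed to 399 ± 24.0 and 343 ± 9.27. Of the 7 members on chromosome 14, PSME1 fell while PSMA3, PSMA6, PSMB5, PSMC1, PSMC6 and PSME2 were higher.

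Other genes of the pathway were read from lists of their roles, to be set against the 25.6% of all genes tested that were called higher and the 37.9% called lower. Among further subunits and assembly factors 8 of 12 were higher and 0 lower, with a median log2 change of 0.27. They include subunits of the regulatory particle without a PSM symbol: SHFM1 was higher (0.31), and the ubiquitin receptor ADRM1 did not pass (0.09; limma adjusted p = 0.260). POMP, the maturation factor of the core, rose from 88.8, 81.1 and 88.0 FPKM in control to 120, 122 and 119 in knockdown libraries (0.48, SE 0.05; limma adjusted p = 5.14e-05). PITHD1 was 1.92 times, the proteasome-bound deubiquitinase UCHL5 1.61 times and its counterpart USP14 1.44 times the control. Ubiquitin shuttles and the VCP segregase complex were higher in 7 of 11 and lower in 0, led by UFD1L, RAD23B and UBQLN4 at 1.40 to 1.54 times the control. Cullin ligases and neddylation genes were higher in 6 of 11 and lower in 0, led by RBX1, CUL3 and NEDD8 at 1.32 to 1.51 times. The deubiquitinases were higher in 3 and lower in 1 of 8, so that 4 did not pass, with USP7 at 1.57, OTUB1 at 1.32 and USP5 at 1.31 times, and UCHL3 as the lower one, with a log2 change of -0.16.

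Genes of ubiquitin and its activation did not all change in one direction. UBB, a polyubiquitin gene, rose from 682 ± 30.1 FPKM (SD, n = 3) to 1026 ± 20.9, and the activating enzyme UBA1 was 1.16 times the control. UBA3, a subunit of the NEDD8-activating enzyme, was 1.14 times lower, and its call was lost in 6 of 17 settings.

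Regulators of proteasome genes were lower in 7, higher in 3 and not called in 4 of 14, where 37.9% of all genes tested were lower and 25.6% higher, with a median log2 change of -0.30 against -0.09. NFE2L1, the activator of constitutive proteasome genes, stood at 56.4, 60.8 and 60.7 FPKM in control and at 34.3, 33.6 and 34.3 in knockdown libraries, a change of -0.78 (SE 0.05; limma adjusted p = 5.61e-06). The NFE2L1 transcript was thus lower in the libraries in which most of the constitutive subunits were higher. Its relative NFE2L3 was 2.08 times lower. IRF1, an interferon-induced factor that acts on immunoproteasome genes, stood at 9.29, 8.08 and 10.2 in control and at 4.12, 4 and 4.08 in knockdown libraries, and STAT2 was 2.58 times lower. The 3 higher regulators, named outside the rule for completeness, were DDI2, which cleaves NFE2L1 into its active form, and the NF-Y subunits NFYB and NFYC, with log2 changes of 0.63, 0.30 and 0.36. The further NF-Y subunit NFYA did not pass (-0.03; limma adjusted p = 0.716), and neither did NFE2L2 (0.09; limma adjusted p = 0.351). These are transcript levels, and the activity of NFE2L1 is set largely by processing of its protein.

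Genes of peptide loading, which use the products of the proteasome, were lower in 5 and higher in 3 of 8, against 37.9% and 25.6% of all genes tested. TAPBP, which bridges the transporter to MHC class I, was 2.06 times lower and the class I light chain B2M 2.03 times lower, whereas the chaperone CALR rose to 1.91 times the control. ERAP1 and ERAP2, which trim peptides, were lower as well, and TAP2 and PDIA3 higher. TAP1, which shares a divergent promoter with PSMB9 and was picked with its values known, had 18.64, 15.96 and 17.62 FPKM in control and 8.69, 9.05 and 9.52 in knockdown libraries, a change of -0.87 (SE 0.07; limma adjusted p = 2.52e-05).

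**Figure D4:**
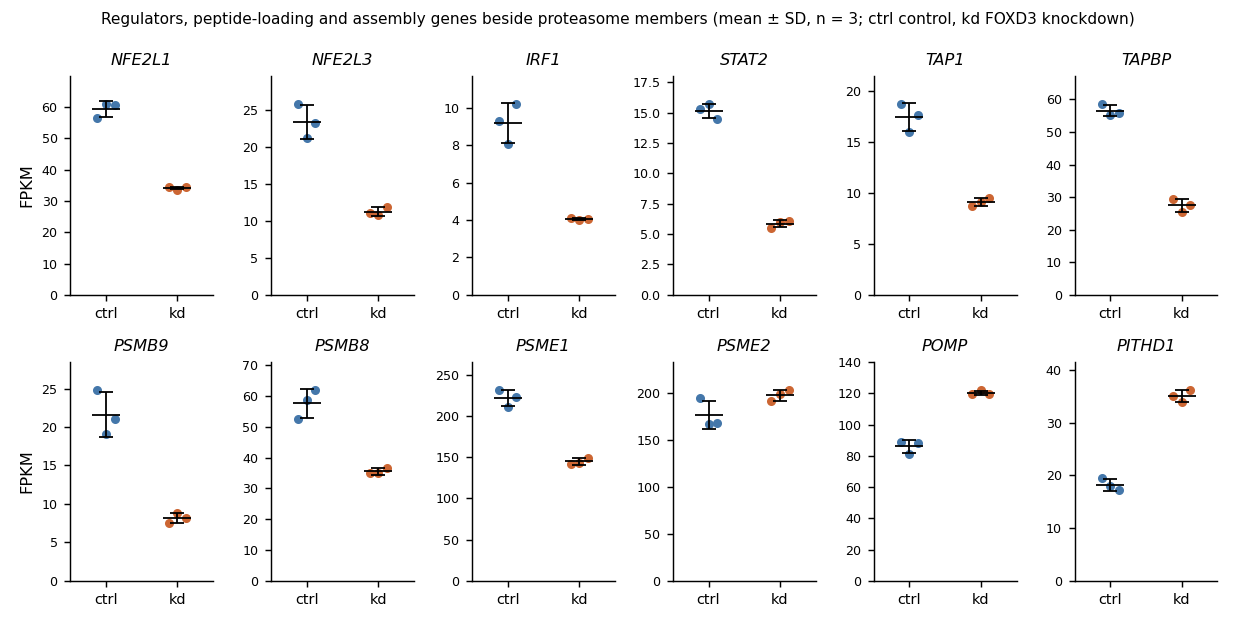
FPKM in each library (points), mean and SD (n = 3 per group) for regulators, peptide-loading and assembly genes beside 4 proteasome members, with each axis starting at 0. NFE2L1, NFE2L3, IRF1, STAT2, TAP1, TAPBP, PSMB9, PSMB8 and PSME1 are lower in all knockdown libraries, POMP and PITHD1 higher, and PSME2 overlaps between groups.

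The authors' deposited table of their own comparison holds 46 symbols that match the rule, without PSMB8 and PSMB9 and with the antisense gene PSMD5-AS1. Of these 46, 18 had a false discovery rate under 0.05, all of them higher in the knockdown, in the authors' deposited table, where 10.9% of its 12275 genes were. None of the 46 is in the authors' deposited subset of 1059 called genes (8.63% of the table). The smallest absolute log2 change in that subset is 1.00 and its largest false discovery rate is 0.00984. The largest change of a member in the authors' deposited table is that of PSMC1, 0.99. For PSMB10 and PSME1, which limma called lower, the authors' deposited table gives log2 changes of -0.30 and -0.47 with false discovery rates of 0.470 and 0.131. Among the 45 members in both, the sign differed for PSMG3 only.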

How the data were processed

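Each library has a deposited table of FPKM. The authors' comparison is a further deposited table that holds group FPKM, log2 fold change, p-value and FDR (false discovery rate). TopHat2 2.0.12, Bowtie, Cufflinks 2.0.2, Cuffdiff and hg19 appear in the submitters' processing notes without role or order. Strand setting and annotation: not given in the sources used here. Therefore overlapping and antisense genes cannot be separated. Libraries were grouped by the genotype label. FPKM were summed over the loci of a symbol, unlisted symbols were set to 0, genes averaging 0.5 FPKM or more were kept, and limma 3.58.1 in R 4.3.3 tested log2(FPKM + 1) (trend, two-sided, Benjamini-Hochberg), which was tested on simulated data. Counts are not held, and no count model was fitted. Ratios of 2 genes and FOXD3 were tested by exact permutation. The depth estimate read intronless genes of at least 2500 bp (GENCODE 29) within 5000000 to 12000000 fragments, a window it cannot leave. Promoters are RefSeq's 250 bases before each start, found for 41 of 47 members. Coordinates of genes are hg19 from the files, 1-based, and those of sequences GRCh38.p14.

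The members and lists were chosen with earlier results of these data known. All members are accounted for. Library values are given for the catalytic subunits and caps, the called members with the largest and smallest change of each role, and members that did not pass. Of other pathway lists, up to 3 called genes with the largest change and at least 5 FPKM are named beside NFE2L1, POMP and IRF1. PSMA7, TAP1, PSMF1, PSMC3IP and genes listed without values by library were named besides these. Some genes of the ubiquitin list are not reported here, nor is its count. Alternatives covered the pseudocount, filter, scaling, variance model, loci and leaving out each library.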

Additional observations from a re-analysis of the deposited data

How the results depend on the processing

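Over 17 alternatives 33 to 40 members were higher, and 4 were lower in each. All 4 lower members and 33 of the 37 higher ones kept their call in every alternative, among them 27 of 29 constitutive subunits. PSMA6, PSMD2, PSMD10 and PSME2 lost theirs in at least 1. Leaving out a library gave 34 to 38 higher and 4 lower members, 28 to 30 higher constitutive subunits, 2961 to 3406 higher and 4519 to 5063 lower genes. A filter at 5 FPKM gave 3295 lower genes, with fewer genes tested. Signs of members that did not pass turned for PSMB4 (-0.0597) and PSMB7 (-0.0253) after quantile normalization, for PSMG2 (0.0378) and PSMG3 (0.117) after median scaling, and for PSMG3 also with equal library totals (0.00703), the same without small RNAs (0.0311), and without control replicate 1, knockdown replicate 2 or knockdown replicate 3 (-0.0713 to 0.0373 over all single libraries). The median change of the constitutive subunits was 0.49, 0.62 after median scaling and 0.40 after quantile normalization. The ratio PSMB9 over PSMB6 changed by -1.65 after quantile normalization and -1.51 with the highest locus alone, and PSMB10 over PSMB7 by -0.35 after quantile normalization. Without single libraries the 3 ratios ran from -1.18 to -1.02 (PSMB8), -1.93 to -1.77 (PSMB9) and -0.57 to -0.48 (PSMB10). Summed levels, knockdown over control, were after median scaling 0.649 for the immunoproteasome, 1.16 for chaperones, 0.942 for PSME1 with PSME2 and 1.65 for PSME3 with PSME4, and 0.794 for PSME1 with PSME2 after quantile normalization. The cause of these shifts was not tested. No paired analysis was possible because the replicate numbers only follow the order of the records, and nothing in the labels ties a control library to a knockdown library.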

Other observations

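The rows of PSMB9 differ between the copies of the MHC region. Its mean FPKM in control libraries was 3.60 to 3.73 in 5 copies, the reference chromosome among them, and 0.990 to 1.151 in the copies named apd, mcf and ssto. The control mean was 1.81 to 2.14 times the knockdown mean in those 3 and 2.63 to 3.05 times in the other 5. For PSMB8 only the copy named dbb stood apart, with a control mean of 9.09 FPKM, where the other copies had 6.73 to 7.10. In knockdown libraries dbb averaged 5.80 FPKM and the other copies 4.10 to 4.38.

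In the authors' deposited table the group FPKM of PSMD11 is 23.8 for control, where the mean of the 3 control libraries is 37.5, and that of PSMC4 is 46.6, where the libraries average 66.4. These are 0.635 and 0.701 of the library mean in control, and 0.690 and 0.775 in the knockdown. For the other 43 members in both sources the group value was 0.860 to 1.02 of the library mean in control and 0.924 to 1.09 in the knockdown. The direction of PSMD11 and PSMC4 was the same in both sources.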
